A study of Macaca fascicularis and Macaca mulatta and Papio anubis with 20 samples.

Results

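The genes described here are the voltage-gated calcium channel subunits, the HCN pacemaker channels, the CLC chloride channels and transporters, and the anoctamins, in the dorsal root ganglion of *Macaca fascicularis*. They were chosen by name alone, as every gene symbol in the *M. fascicularis* feature set that begins with CACNA, CACNB, CACNG, HCN, CLCN or ANO followed by a digit. The rule found 38 genes among 22000 features, of which 15068 carried a symbol. The set comprised 6 CACNA1 genes, 4 CACNA2D genes, 4 CACNB genes, 6 CACNG genes, 7 CLCN genes and 8 ANO genes, and HCN genes made up the rest. CACNA1B, CACNA1C, CACNA1G and CACNA1H were not among the symbols that the rule found and are not analysed here.

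Sections of fresh-frozen ganglia, 10 µm thick and 100 µm apart, were placed on Visium slides, on which each spot captures polyadenylated RNA from the tissue above it and can hold several cells. The 16 *M. fascicularis* sections came from 4 specimens with 4 sections apiece. Batch 1 held one female specimen and one male specimen, and batch 2 likewise. A specimen here means all sections with the same title code, and whether one code is one animal is not stated in the labels. A further 2 sections labelled *Macaca mulatta* and 2 labelled *Papio anubis* came from 1 title code each, in batch 2, with no sex given. No treatment, age or genotype is labelled, and the tissue is described as obtained from a commercial supplier and as recovered from organ donors. The batches, the specimens and the versions of the counting software cannot be told apart in this design.

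A high-voltage-activated calcium channel is built from a CACNA1 protein that forms the pore and from CACNB and CACNA2D subunits. The CACNB β subunit lies inside the cell and brings the pore to the membrane. The CACNA2D α2δ subunit lies outside the cell and raises surface expression. HCN channels open on hyperpolarization and carry a depolarizing current that sets excitability in large sensory neurons. CLC proteins are either chloride channels of the plasma membrane (CLCN1, CLCN2) or chloride-proton exchangers of endosomes and lysosomes (CLCN3 to CLCN7), and anoctamins are calcium-activated chloride channels or lipid scramblases. PVALB, which encodes parvalbumin, is known from large proprioceptive neurons, and SCN11A, which encodes the sodium channel Nav1.9, from small nociceptors.

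The *M. fascicularis* sections held 1136433 to 7073134 UMIs under tissue, a UMI being one captured molecule, and 18.7% to 24.3% of them belonged to features without a symbol. Levels are given as CPM, the count scaled to a fixed total of UMIs over all features. Because UMIs count molecules at the 3′ end and not fragments along the transcript, no scaling by length was needed to rank genes, although capture and the annotated 3′ end can differ between genes. The summed level of a 15-gene neuron list lay between 24411 and 40297 CPM in the sections, myelinating Schwann cell genes between 1945 and 9222 CPM, and satellite glia genes between 3593 and 6862 CPM. Skeletal muscle genes stayed at or below 49.6 CPM. Of 21897 tissue spots in the 15 sections with a deposited spot matrix, 18594 had at least 200 UMIs and were used for the spot comparisons. The fourth specimen, the batch 2 male, was the shallowest, with 8284911 UMIs against 16540332 to 19255365 in the others.

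A handful of genes carried almost all of the channel transcripts. The 38 genes together held 49314 of 63255489 UMIs. The 5 genes with most UMIs, CACNB3, CLCN7, CLCN3, ANO10 and CACNA2D3, held 69.6% of these, and the 11 genes over 1000 UMIs held 93.3%. CACNA1I, which encodes a T-type pore subunit, had 0 UMIs in all 16 sections, which allows a level of up to 0.0474 CPM (3 counts, counting error only). A further 11 genes had 1 to 25 UMIs. By family, CACNB genes held 15399 UMIs, CLCN genes 14949, ANO genes 11345 and CACNA2D genes 6428, whereas CACNG genes held 697 and CACNA1 genes 230. The auxiliary subunits were therefore counted far more often than the pores among the symbols measured. The summed level of the 38 genes was 764 ± 75.0 CPM in the batch 1 female, 768 ± 65.7 in the batch 1 male, 796 ± 24.96 in the batch 2 female and 839 ± 62.8 in the batch 2 male (SD, n = 4 sections each).

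**Figure D1:**
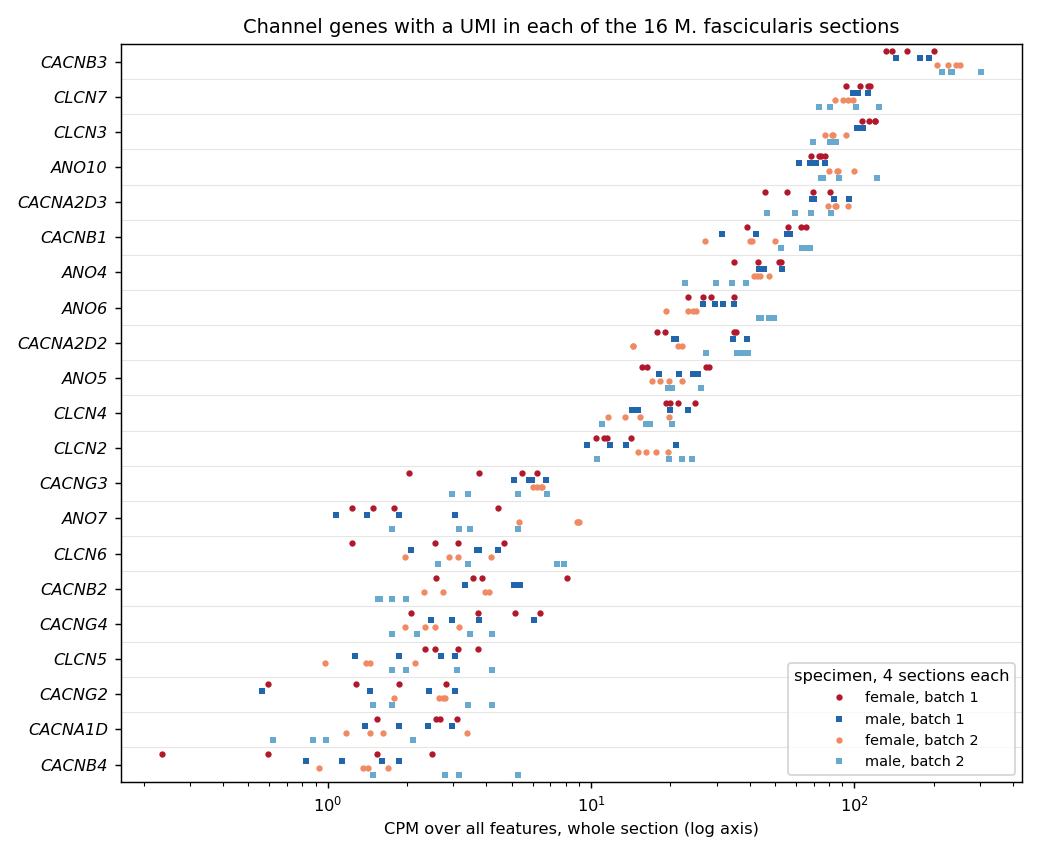
Level of 21 genes with a UMI in each of the 16 *M. fascicularis* sections, in CPM on a log axis, with 1 point per section coloured by specimen. CACNB3 lies highest, with sections from 131 to 304 CPM, and below it the section levels of neighbouring genes, such as CLCN7 and CLCN3, overlap.

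Among the pore subunits the levels were near the detection limit. CACNA1D, an L-type pore, was the highest at a mean of 1.92 CPM over the 4 specimens, followed by CACNA1F, another L-type pore best known from photoreceptors, at 1.08 CPM. CACNA1A, the P/Q-type pore, reached 0.29 CPM from 16 UMIs. CACNA1E, the R-type pore, and CACNA1S, the skeletal muscle pore, had 2 UMIs each. These 6 genes had too few counts for their order below CACNA1D to be read.

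Of the β subunits, CACNB3 was the most abundant gene of the whole set, at 157 ± 31.2 CPM in the batch 1 female, 164 ± 24.4 in the batch 1 male, 231 ± 19.7 in the batch 2 female and 247 ± 39.1 in the batch 2 male (SD, n = 4 sections each). It made up 71.8%, 75.9%, 84.1% and 78.6% of the CACNB UMIs in these specimens, in the same order and averaged over sections. CACNB1 followed at 55.8 ± 12.0, 46.5 ± 12.0, 39.5 ± 9.4 and 62.0 ± 6.4 CPM. CACNB2, known from cardiac muscle, and CACNB4 stood at 3.57 and 1.77 CPM on average, so the order CACNB3, CACNB1 and then the other two held in every specimen.

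The α2δ subunits were led by CACNA2D3, at 62.8 ± 15.4, 79.4 ± 12.4, 85.7 ± 6.3 and 63.9 ± 14.7 CPM in the batch 1 female, batch 1 male, batch 2 female and batch 2 male. CACNA2D2 came next at 26.8 ± 9.7, 28.8 ± 9.4, 18.1 ± 4.2 and 35.02 ± 5.4 CPM. CACNA2D3 accounted for 63.7% to 81.5% of the CACNA2D UMIs. CACNA2D1, the α2δ subunit best known as the gabapentin target in rodent sensory neurons, stood at 0.80 CPM from 51 UMIs, and CACNA2D4 at 0.21 CPM. Among the CACNG genes, several of which encode regulators of AMPA receptors, CACNG3 was highest at 5.30 CPM, and CACNG1 and CACNG5 had 1 UMI each.

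HCN4, the slow pacemaker channel of the sinoatrial node, had 6 UMIs in the 16 sections, and HCN3 had 3.

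Among the chloride transporters of endosomes and lysosomes, CLCN7 and CLCN3 were the most abundant. CLCN7, the lysosomal exchanger, averaged 99.4 CPM, and its sections ran from 73.6 to 124 CPM with a median of 100.4. CLCN3, an endosomal exchanger, averaged 95.5 CPM, with 115 ± 5.9, 104 ± 2.5, 83.7 ± 6.3 and 79.1 ± 6.4 CPM in the specimens in the order above. The section levels of CLCN7 and CLCN3 overlapped, and each held 36.6% to 44.3% of the CLCN UMIs in every specimen. CLCN4 and CLCN2 followed at 17.6 and 15.5 CPM, and CLCN6 and CLCN5, also exchangers, stood at 3.69 and 2.35 CPM. CLCN1, the muscle chloride channel, had 5 UMIs.

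ANO10, a widely expressed anoctamin, was the highest of its family at 80.4 CPM and held 39.96% to 47.5% of the ANO UMIs. ANO4 averaged 41.9 CPM, ANO6, the scramblase of platelets, 32.0 CPM, and ANO5, known for its role in muscle, 21.2 CPM. ANO1, the calcium-activated chloride channel known from heat-sensing nociceptors of rodents, had only 4 UMIs in 16 sections. ANO2 reached 0.79 CPM from 58 UMIs.

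Sex was compared over specimens with batch in the model. No gene of the 26 tested was called different between the females and the males (edgeR quasi-likelihood test, Benjamini-Hochberg adjusted over 12650 features), and none had an unadjusted p under 0.05. Over all features the call rate was 0%, with 169 features at an unadjusted p under 0.05. DESeq2 called 0 features as well, with 179 at an unadjusted p under 0.05. The largest fitted differences with the same direction in both batches were for CACNA1F, 1.57 ± 0.70 (log2, female minus male, ± SE), ANO7, 0.79 ± 0.47, and CACNB4, -0.76 ± 0.54, each with an adjusted p of 0.998. With 2 specimens per sex a difference would have to be large and even to pass.

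Between the labelled batches 0 of the same 26 genes was called, against 2.88% of all features tested (edgeR, same fit), and DESeq2 called none either. An unadjusted p under 0.05 was found for 5 of them, including the 4 that follow, and for 2389 of all 12650 features tested. The share of the set was thus close to that of all features. ANO7 differed by 1.59 ± 0.47 (log2, batch 2 minus batch 1, ± SE, adjusted p = 0.127). CACNB3 differed by 0.68 ± 0.21 (adjusted p = 0.144), ANO3, a regulator of potassium channels in sensory neurons, by 1.802 ± 0.68 and CLCN2 by 0.67 ± 0.29. Section levels of CACNB3 did not overlap between the batches, at 131 to 201 CPM in batch 1 and 206 to 304 CPM in batch 2. CLCN3 ran the other way, at 102 to 120 CPM in batch 1 and 69.9 to 92.5 CPM in batch 2. These were the only genes of the set without overlap, and 5.95% of all features with a count behaved so.

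Markers of other cells also differed between the batches. Myelinating Schwann genes summed to 6080 and 5651 CPM in the batch 1 specimens and 2210 and 3290 CPM in those of batch 2, fibroblast genes to 5590 and 4662 against 2882 and 1899 CPM, and adipocyte genes to 1357 and 1266 against 2523 and 4841 CPM. SCN11A differed by -0.69 on the log2 scale (edgeR, adjusted p = 0.175). Their part in the batch values of CACNB3 and CLCN3 was not tested. Fewer cells of a type and less RNA per cell cannot be told apart in such sections.

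Spots with PVALB were next set against spots with SCN11A. A PVALB spot had at least 2 PVALB UMIs and 0 SCN11A UMIs, and a SCN11A spot the reverse. There were 340, 340, 715 and 137 PVALB spots and 340, 629, 295 and 341 SCN11A spots in the batch 1 female, batch 1 male, batch 2 female and batch 2 male. Counts were summed per specimen and spot class and tested with the specimen as a block. Because PVALB and SCN11A placed the spots, their own difference is no result.

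In this comparison 3 of 15 genes tested were called, CACNB1, CACNA2D2 and CACNB3, all lower in PVALB spots, whereas no CACNG, CLCN or ANO gene that was tested was called in either direction (edgeR quasi-likelihood test with Benjamini-Hochberg adjustment). Of all 10093 features tested 28.7% were called, 14.8% higher and 14.0% lower in PVALB spots. The share of the set called was thus not far from the share of all features. The median log2 difference was 0.0075 over the 15 genes and -0.013 over all features. None of the 6 pore genes had counts enough to be tested.

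CACNB1 stood at 28.0, 20.9, 25.04 and 34.7 CPM in the PVALB spots and 79.9, 61.3, 65.3 and 70.5 CPM in the SCN11A spots of the batch 1 female, batch 1 male, batch 2 female and batch 2 male. No PVALB value reached the lowest SCN11A value, and CACNB1 was lower in PVALB spots in 14 of 15 sections. The fitted difference was -1.38 ± 0.13 (log2, ± SE, adjusted p = 2.8e-08). As a share of all CACNB UMIs it made up 13.6 ± 2.7% in PVALB spots and 22.9 ± 4.1% in SCN11A spots (SD, n = 4 specimens).

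CACNA2D2 showed the same size of difference among the α2δ subunits, at 13.8, 13.3, 12.3 and 22.3 CPM in PVALB spots and 38.4, 42.6, 33.1 and 32.5 CPM in SCN11A spots. Again the classes did not overlap, 14 of 15 sections were lower in PVALB spots, and the fitted difference was -1.39 ± 0.17 (log2, adjusted p = 1.41e-06). CACNA2D2 made up 14.3 ± 2.9% of CACNA2D UMIs in PVALB spots and 30.5 ± 3.7% in SCN11A spots. CACNA2D3, the more abundant subunit, read 75.1, 74.4, 109.7 and 109.05 CPM against 69.6, 90.6, 88.0 and 79.8 CPM, and its difference of 0.15 did not pass (adjusted p = 0.36).

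CACNB3 was lower by a smaller margin, at 129, 124, 190 and 250 CPM in PVALB spots and 199, 201, 291 and 242 CPM in SCN11A spots. It fell in 3 of 4 specimens and 14 of 15 sections, and was slightly higher in the PVALB spots of the batch 2 male. The fitted difference was -0.48 ± 0.10 (log2, adjusted p = 0.000822). Without the specimen block it was not called (adjusted p = 0.46).

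Spots with at least 2 UMIs of each of PVALB and SCN11A, 297, 446, 185 and 47 of them, are given as values without a test. CACNB1 stood there at 54.7, 53.1, 50.3 and 32.8 CPM and CACNA2D2 at 26.3, 30.0, 21.5 and 44.8 CPM. CACNB1 lay between its levels in PVALB spots and in SCN11A spots in the first 3 specimens and just below its PVALB level in the batch 2 male. CACNA2D2 lay between its levels in the same 3 specimens and above both in the batch 2 male, which had the fewest such spots. These spots held more UMIs on average than either class, from 7128 to 13547 per specimen.

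**Figure D2:**
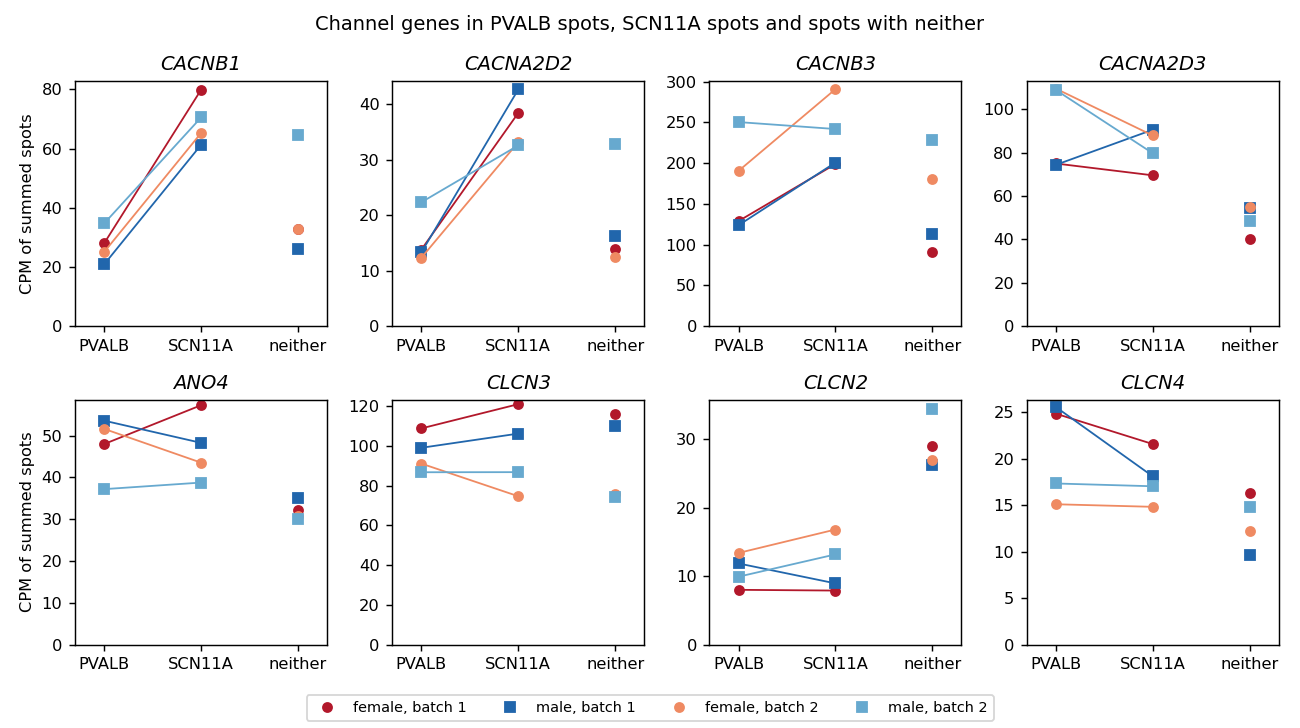
Level of 8 genes in PVALB spots, SCN11A spots and spots with neither transcript, in CPM, with 1 point per *M. fascicularis* specimen and a line that joins its PVALB and SCN11A spots. CACNB1 and CACNA2D2 lie lower in PVALB spots than in SCN11A spots in each of the 4 specimens, and CLCN2 lies highest where neither was counted.

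The remaining genes were not called. ANO7 differed by -0.92 ± 0.41 (log2, ± SE, adjusted p = 0.0971), CACNG3 by -0.81 ± 0.35 (adjusted p = 0.092) and ANO6 by 0.34 ± 0.14 (adjusted p = 0.0867). CLCN3, CLCN7, ANO10 and ANO4 had fitted differences of 0.05, -0.09, 0.04 and 0.08. CACNG2 and ANO2 had too few counts to be tested, with mean levels of 1.07 and 0.28 CPM in PVALB spots against 3.87 and 1.25 CPM in SCN11A spots. With spots placed by at least 3 UMIs, CLCN4 (0.52, adjusted p = 0.04) and ANO6 (0.45, adjusted p = 0.047) were called higher in PVALB spots besides the 3 genes above. At that threshold 3023 of 9623 features were called.

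Other transcripts moved between the spot classes as well. The neuron list summed to 42653 ± 6367 CPM in PVALB spots and 30387 ± 2727 CPM in SCN11A spots, and without neurofilament and intermediate filament genes to 17627 and 18784 CPM. Fibroblast genes summed to 3404 and 2157 CPM, myelinating Schwann genes to 3001 and 3072 CPM, satellite glia genes to 4444 and 4787 CPM, endothelium genes to 251 and 175 CPM with no overlap between the classes, smooth muscle genes to 221 and 149 CPM, adipocyte genes to 2316 and 2506 CPM, immune genes to 1482 and 1663 CPM, and the 2 red blood cell genes in the feature set to at most 0.686 CPM. Fibroblast, smooth muscle and endothelium genes were higher in PVALB spots in all 4 specimens. The part of these lists in the 3 calls was not tested. PVALB spots held on average 6622, 6206, 6479 and 2945 UMIs and SCN11A spots 8579, 6227, 6856 and 3784. Among only the spots with the highest neuron-list share, the differences of CACNB1, CACNA2D2 and CACNB3 were -1.37, -1.18 and -0.55 and all 3 were called.

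Spots rich in neuron transcripts were then compared with the rest. Neuron-list spots were the 25% of each section with the largest share of UMIs in the neuron list, 4648 spots against 13946 others, and no channel gene is in that list. The comparison uses many of the same spots as the PVALB comparison, so the results of both are not independent. Of 25 genes tested 11 were called, 6 higher and 5 lower (edgeR quasi-likelihood test with Benjamini-Hochberg adjustment), against 42.4% of 12125 features, 20.3% higher and 22.0% lower. The share of the set called was close to that of all features. Neuron-list spots held 7480, 7027, 6691 and 2246 UMIs on average in the 4 specimens and the others 3176, 2791, 1805 and 1637.

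CLCN4, an endosomal exchanger, had the largest rise, at 29.3, 24.1, 18.3 and 18.6 CPM in neuron-list spots against 15.5, 14.4, 11.2 and 14.1 CPM elsewhere. Each specimen was higher, and the difference was 0.83 ± 0.11 (log2, adjusted p = 8.69e-06). ANO4 rose by 0.56 ± 0.08, from a mean of 37.2 to 50.9 CPM, CACNA2D3 by 0.55 ± 0.09, from 64.1 to 87.5 CPM, and ANO5 by 0.49 ± 0.10, in 15 of 15 sections. ANO10 rose by 0.44 ± 0.07, from 70.7 to 90.1 CPM. CACNB3 rose by 0.16 ± 0.06 (adjusted p = 0.0435). The evidence for this rise was weaker in 16 alternative settings and the same in 12, and its fitted difference ran from 0.028 to 0.52.

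CLCN2, a plasma-membrane chloride channel, was lower in neuron-list spots, at 7.7, 9.7, 13.5 and 13.4 CPM against 16.01, 16.2, 20.2 and 23.6 CPM. Its difference was -0.69 ± 0.12 (log2, adjusted p = 0.000138). ANO7 fell by 0.80 ± 0.22, CACNG3 by 0.64 ± 0.20, CACNA2D2 by 0.30 ± 0.09 and CACNB1 by 0.24 ± 0.09. The evidence was weaker in 9 alternative settings for CACNB1, 5 for CACNG3, 4 for CACNA2D2 and 1 for ANO7, and each was reversed in 2. In the batch 2 male CACNG3 was higher in neuron-list spots, at 5.15 against 4.71 CPM.

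The choice of neuron genes turned the direction of several of these. The list holds the neurofilament genes, which are strongest in large neurons, and PVALB differed by 1.76 and SCN11A by -0.79 between neuron-list spots and the others. A second list, called the list without neurofilaments, left those genes out and also the intermediate filament genes PRPH and INA. Under it SCN11A rose by 0.67 and PVALB differed by 0.14 without being called. Then 9 genes were called higher and 2 lower, against 14.2% and 19.1% of all features. CACNA2D2 rose by 0.49 ± 0.10, from 18.7, 24.1, 14.6 and 34.3 CPM to 30.1, 31.4, 21.0 and 37.9 CPM, and CACNB1 by 0.43 ± 0.09, from 41.6, 38.6, 36.5 and 56.6 CPM to 63.0, 53.9, 42.5 and 63.4 CPM. Both had fallen under the first list. CACNB3 rose by 0.49 ± 0.07 in 15 of 15 sections, and CACNG2 by 0.90 ± 0.32. ANO7 and CACNG3, at 0.35 and 0.34, were no longer called.

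Genes that kept their direction and call under both lists were CLCN4, ANO4, ANO5, ANO10, CACNA2D3 and CACNB3, which were higher, and CLCN2, which was lower. CLCN2 fell by 1.02 ± 0.13 under the second list, in 15 of 15 sections. It was lower in all 4 specimens, at 6.31, 8.48, 11.96 and 15.06 CPM against 18.4, 17.8, 22.1 and 22.8 CPM elsewhere.

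**Figure D3:**
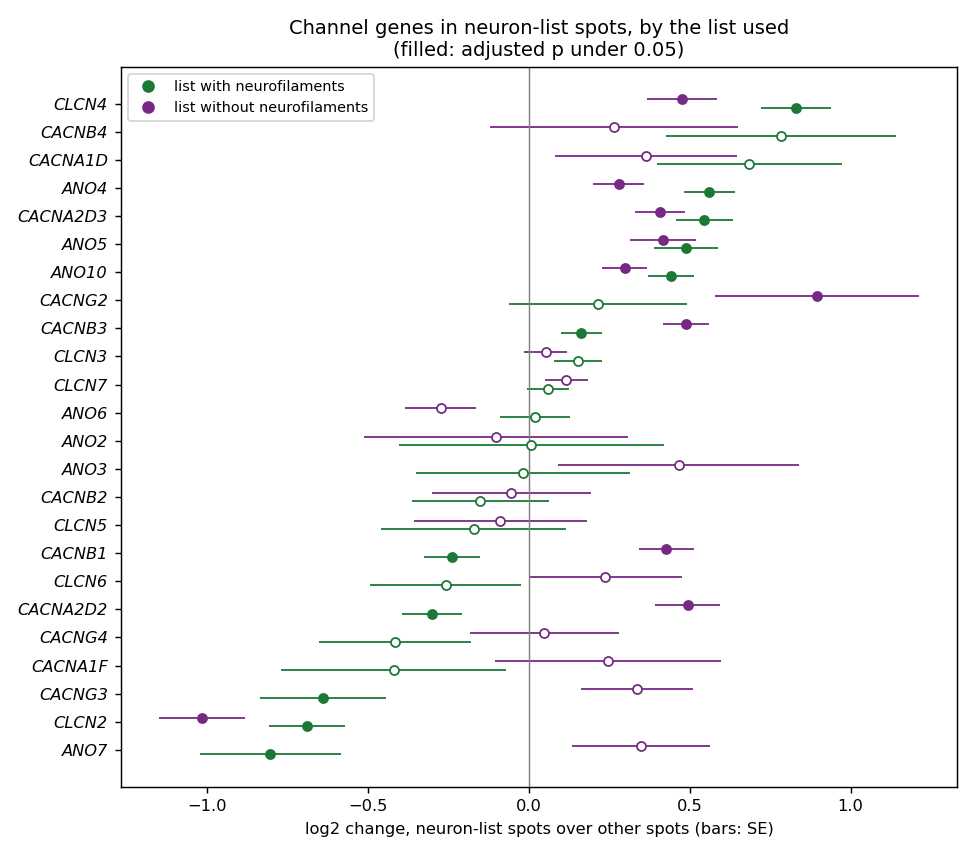
Fitted log2 difference of each gene between neuron-list spots and other spots of *M. fascicularis*, with bars of 1 SE, for the list with and without neurofilament genes, PRPH and INA. Filled points have an adjusted p under 0.05. CACNA2D2 and CACNB1 change sign between the lists, while CLCN2 is lower and CLCN4 higher under both.

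No gene of the set showed a tested difference in either spot comparison between the batches or the sexes. For the interaction with batch the lowest adjusted p was 0.385 in the PVALB comparison, where 21 of 10093 features were called, and 0.669 in the neuron-list comparison, where 4 of 12125 were called (edgeR quasi-likelihood test). For the interaction with sex the lowest adjusted p was 1 and 0.956. There 0 of 10093 features were called in the PVALB comparison and 7 of 12125 in the neuron-list comparison (same test).

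Where each channel gene lay relative to 8 cell-type marker lists is given as a description, since one spot can be among the top 25% for several lists. CLCN2 stood out in myelinating Schwann-list spots, at 70.8, 57.9, 67.5 and 73.2 CPM against 8.53, 10.4, 14.1 and 14.3 CPM in the other spots of the 4 specimens. That is a log2 ratio of 2.4997, and the log2 ratios in adipocyte-list, fibroblast-list and smooth muscle-list spots were 1.52, 1.31 and 1.13. In spots with neither PVALB nor SCN11A transcripts CLCN2 reached 29.2 ± 3.7 CPM, against 10.8 ± 2.3 CPM in PVALB spots and 11.7 ± 4.1 CPM in SCN11A spots (SD, n = 4 specimens).

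CACNG4, which regulates calcium channels and AMPA receptors, was higher in satellite glia-list spots in each specimen, at 5.43, 4.43, 4.24 and 5.14 CPM against 3.504, 3.29, 2.08 and 2.07 CPM. CACNB2 was higher in fibroblast-list spots, with a log2 ratio of 0.79, and ANO6 in smooth muscle-list spots, with a log2 ratio of 0.67, each in 3 of 4 specimens. CACNA2D3 was lower in myelinating Schwann-list spots in all 4 specimens, with a log2 ratio of -1.06.

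**Figure D4:**
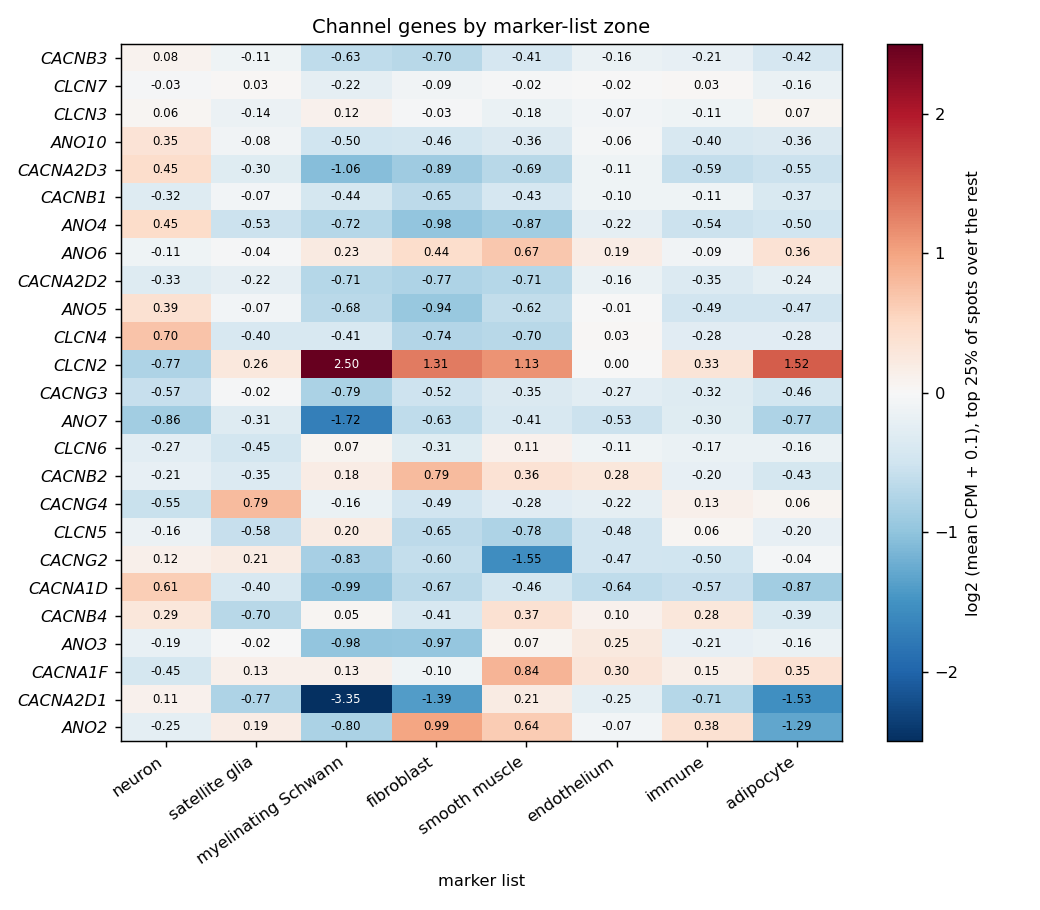
Log2 ratio of the level of 25 genes in the 25% of spots with the highest share of each marker list to the level in the other spots, averaged over the 4 *M. fascicularis* specimens with 0.1 CPM added. Colours end at 2.5 in both directions. CLCN2 in myelinating Schwann-list spots is the highest of these ratios at 2.4997, and CACNA2D3 is low there at -1.06.

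Spatial structure was read from the authors' deposited tables of Moran's I, a score near 0 for a gene scattered at random over the spots and positive for one whose neighbouring spots are alike. In these tables CACNB3 and CACNA2D3 had an adjusted p under 0.05 in 12 of 16 *M. fascicularis* sections each, with median Moran's I of 0.0414 and 0.0383. They were the 2 genes of the set that passed in at least 8 sections, and 8.69% of all features with a count did so in the authors' deposited tables. Those medians lie at the 96.0 and 95.6 percentile of all features. CACNB1 passed in 7 sections, CACNA2D2 in 6, ANO4 in 5, and 18 genes in none. The values are small, and no gene passed in 8 sections once an I of at least 0.1 was also asked for. CLCN7 and ANO10, as abundant as CACNA2D3 in whole sections, passed in 4 and 3 sections of the authors' deposited tables.

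Genes that work with these channels were taken from lists of known partners. Of 28 regulators and release channels of calcium signalling, 25 were in the feature set, and 8 of the 17 tested were higher in PVALB spots and 1 lower (edgeR, adjusted p under 0.05), against 14.8% and 14.0% of all features. REM2, a small GTPase that inhibits calcium channels, rose by 2.32, RYR2, the ryanodine receptor of heart and brain, by 1.90, CACHD1, an α2δ-like protein, by 1.78 and the active-zone protein RIMS1 by 1.71, whereas its relative RIMS2 fell by 1.09 (log2). In neuron-list spots 7 of 20 rose and 2 fell, against 20.3% and 22.0% of all features, among them REM2 by 1.62 and CACHD1 by 1.26. None of these lists had a call by sex or batch.

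Of the HCN partners 1 of 4 tested rose in PVALB spots, VAPB by 0.28, with a higher level in 3 of 4 specimens. In neuron-list spots 2 of 5 rose, VAPB by 0.50 and PEX5L, the HCN-trafficking protein TRIP8b, by 0.30. Of all features 14.8% rose in PVALB spots and 20.3% in neuron-list spots. Of 30 other chloride channels and transporters 22 were found. LRRC8B, a subunit of the volume-regulated anion channel, fell by 0.71 in PVALB spots as the only call of 12 tested, where 14.0% of all features fell. In neuron-list spots 7 of 16 fell and none rose, against 22.0% and 20.3% of all features. The largest fitted falls were of CLIC3 by 1.34, of CLIC5 by 1.13 and of SLC12A2, the chloride importer NKCC1, by 0.87. CLIC3 rested on low levels, at 0.33 against 1.16 CPM, and the level of CLIC5 was higher in neuron-list spots in 2 of 4 specimens.

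The labelled species were compared over 13089 symbols that the 3 feature sets share, with CPM over the UMIs of those symbols and no test, since 2 of the species have 1 title code each. The identifiers in the files go against the labels. The sections labelled *M. mulatta* carry identifiers of the baboon series (20842 features with the ENSPANG prefix), and those labelled *P. anubis* carry identifiers of the rhesus series (21369 with the ENSMMUG prefix), so species names below are the labels. Depth was very uneven, at 190376 and 264661 UMIs in the libraries labelled *M. mulatta* and 595020 and 12595205 in those labelled *P. anubis*. Values pooled over the latter therefore rest on 1 section. Of the 38 genes 35 were in all 3 sets. ANO2 was not in the set of the *P. anubis* label, and ANO7 and CACNG4 were not in that of the *M. mulatta* label.

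Most of the commonest genes lay near their *M. fascicularis* level in the sections labelled *P. anubis*, and CACNB1 lay lower. The pooled ratio of the *P. anubis* label to *M. fascicularis* was 0.856 for CACNB3 (95% counting interval 0.814 to 0.899), 1.12 for CLCN3, 0.821 for CLCN7, 1.06 for ANO10, 1.24 for CACNA2D3, 0.536 for CACNB1 (0.473 to 0.606) and 1.03 for ANO4. Such intervals cover counting error only and not the spread between animals. Both other labels are of batch 2 only, whereas the pooled *M. fascicularis* values hold both batches. Section levels of CACNB3 and CLCN3 did not overlap between those batches, and the part of batch in these ratios was not tested.

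A few genes departed far from this. ANO1 had 153 UMIs under the *P. anubis* label, 15.3 and 21.7 CPM in its sections, against 4 UMIs and at most 0.393 CPM in the 16 *M. fascicularis* sections, a ratio of 217 (82.9 to 805). HCN4 had 68 UMIs against 6, a ratio of 64.2 (28.0 to 181). CLCN6, a late endosomal exchanger, read 70.3 and 86.1 CPM against 1.87 to 12.0 CPM, a ratio of 15.97 (13.7 to 18.7). Both sections with the *P. anubis* label lay above all *M. fascicularis* sections for ANO1 and CLCN6. For HCN4 the shallow section held 1 UMI, below its floor of 3 counts, so its pooled value rests on the deeper section.

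Others were lower or absent there. CACNA2D2 had 0 UMIs in all sections of both other labels, against 23.4 to 62.0 CPM in *M. fascicularis*, which makes it at least 93.2-fold higher in *M. fascicularis* than the floor of 3 counts over both sections labelled *P. anubis*. ANO5 had 37 UMIs under the *P. anubis* label, a ratio of 0.161 (0.113 to 0.223).

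Of the 36 genes in the set of the *M. mulatta* label, 22 had 0 UMIs in its sections. CACNB3 was among them and was at least 23.1-fold higher in *M. fascicularis* than the floor of 3 counts over both sections, and CLCN7 at least 12.1-fold. CACNA1A had 10 UMIs there, 43.0 CPM against 0.396 CPM, a ratio of 109 (44.1 to 255), and ANO2 had 20 UMIs, a ratio of 59.9 (34.1 to 101). The feature sets differ between the labels, and the part of the gene annotation in these differences was not tested.

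**Figure D5:**
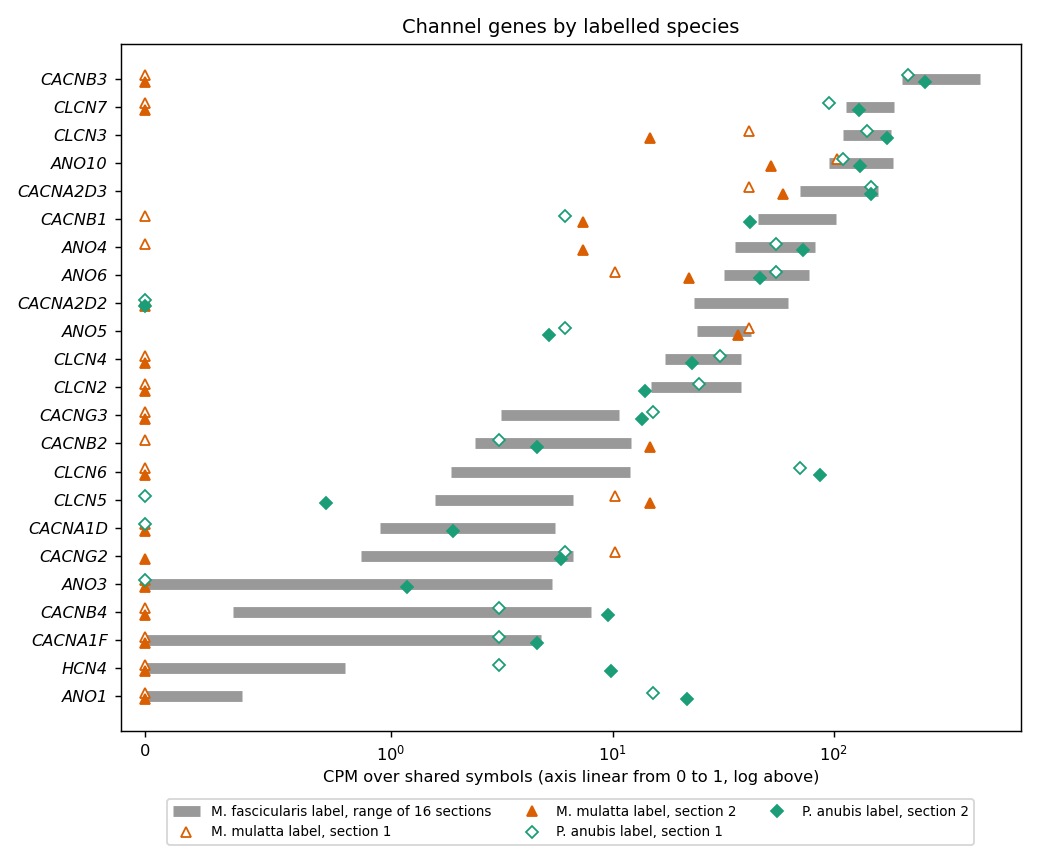
Level of 23 genes in CPM over shared symbols, on an axis that is linear near 0 and logarithmic above, with the range of the 16 *M. fascicularis* sections as a bar and each section of the other labels as a point. CACNB3 and CLCN3 of the *P. anubis* label lie within the *M. fascicularis* range, while ANO1 and CLCN6 lie above it and CACNA2D2 lies at 0.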

How the data were processed

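Visium counts were deposited as sparse matrices and tables. Per the file headers they were made with Space Ranger 2.0.0 or 2.1.0, and the submitters' processing notes name the build Mmul_10 for all samples although the *M. fascicularis* identifiers are its own. How the spots were aligned further is not given in the sources used here. The deposited counts are UMIs per feature and spot. The authors' deposited tables also give Moran's I per feature, a score, with its p-value and adjusted p-value. These were copied and not recomputed. One section of the batch 2 male has the authors' table of features but no spot matrix used here, so spot comparisons use 15 sections.

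Counts under tissue were summed per specimen, or per specimen and spot class, and tested with edgeR 4.0.16 in R 4.3.3 (TMM, filterByExpr, quasi-likelihood, adjusted p threshold 0.05). The sex and batch fit held both terms, and the spot fits held the specimen as a block. DESeq2 1.42.0, other filters, other spot thresholds and leaving out sections were alternatives. Spots needed 200 UMIs. The genes named are the 10 with the highest level, each gene called in any test, the 3 with the largest change of the same direction in every specimen or pair of each test, and a list by role. Genes named outside this rule were chosen after their values were seen. The genes and lists were chosen with earlier results of these data known. P-values measure the spread between 4 specimens. The fits were tested on simulated counts. Sections of one specimen were compared in 24 pairs, and none agreed within sampling noise (lowest chi-square per degree of freedom 3.93). Results for 1 gene are not reported here.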

Additional observations from a re-analysis of the deposited data

Results flagged for a closer look

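Among 18 genes named by level, by a call or by a largest fitted change, 10 of 144 sets of 4 values had a sample far from the other 3, where chance flags about 1 in 20. Over sections, ANO5 read 26.3 CPM in section 2 of the batch 2 male, against 19.6 to 20.2 in the others. ANO7 read 4.45 CPM in section 2 of the batch 1 female (others 1.24 to 1.79) and 5.35 CPM in section 2 of the batch 2 female (others 8.83 to 8.98). CACNA1F read 0.586 CPM in section 4 of the batch 2 female (others 1.16 to 1.25) and 0.494 CPM in section 3 of the batch 2 male, whose other sections had none. With 81 UMIs in all *M. fascicularis* sections together, these CACNA1F values rest on very few counts.

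Over specimens, the batch 2 male was highest for ANO6 in SCN11A spots, at 48.8 CPM against 20.3 to 24.7, for CACNA2D2 in PVALB spots, at 22.3 CPM against 12.3 to 13.8, and for CACNB4 in spots outside the neuron list, at 3.77 CPM against 0.708 to 0.86. The batch 2 female was highest for CACNA2D3 in neuron-list spots, at 107.5 CPM against 78.4 to 82.5, and for CACNG3 in PVALB spots, at 5.18 CPM against 2.37 to 2.66.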

How the results depend on the processing

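The calls of CACNB1 and CACNA2D2 in PVALB spots kept their direction in every alternative run, at -1.62 to -1.09 and -1.58 to -1.18 (log2). The number of genes of the set called there was 5 of 15 tested with at least 3 UMIs to place a spot. It was 5 of 32 with no filter on low counts, and 3 to 4 when sections were left out. Of all features, 3023 of 9623 were called with at least 3 UMIs and 3047 of 15881 with no filter. All features called numbered 1700 with DESeq2, 568 without the specimen block, 1889 in spots with the highest neuron-list share and 2592 to 2950 when sections were left out. For neuron-list spots the set had 7 calls of 25 tested with DESeq2, and 9 to 11 when sections were left out. It had 0 of 24 without the specimen block (6 with an unadjusted p under 0.05). All features called were 3368 of 12125 with DESeq2, 154 of 11504 without the block and 4676 to 5187 when sections were left out. Against the 25% of spots used, taking 50% of spots reversed ANO7 to 0.45, CACNA2D2 to 0.37, CACNB1 to 0.37 and CACNG3 to 0.011, and the list without neurofilaments reversed them to 0.35, 0.49, 0.43 and 0.34. Sex had 0 calls in the set whichever section was left out, and 67 features with no filter, 8 with sections as samples and no replicate block and 5 with the replicate block. Batch had 0 calls in the set whichever section was left out, and 2 of 37 tested with no filter. With sections as samples, which are not independent within a specimen, it had 6 of 20 with no replicate block and 7 of 23 with it. All features called were 1279 of 17322 with no filter, 4345 of 10670 with no replicate block and 4448 of 11264 with it. When sections were left out they numbered 115 to 942. Without section 1 of the batch 1 female they numbered 674, without its section 4 942, and without section 1 of the batch 2 female 564. Without sections 1 and 2 of the batch 2 male they numbered 115 and 120. Deviations of same-numbered sections correlated at 0.221 to 0.496 between the batch 1 specimens and at -0.173 to 0.277 between the other pairs of specimens (2 of 16 sections best with their own number), so the numbers were not taken to pair all specimens.

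With features that have a symbol as the denominator, the summed level became 944 CPM in the batch 1 female, 955 in the batch 1 male, 1037 in the batch 2 female and 1062 in the batch 2 male. Leaving out sections, with all features as the denominator, gave 735 to 793, 743 to 791, 792 to 808 and 808 to 853 CPM. Over all features as the denominator, the species values were 784 CPM for *M. fascicularis*, 154 for the *M. mulatta* label and 603 for the *P. anubis* label. Leaving out a section of either label was done over the shared symbols, so its values are not comparable with these. It gave 274 to 329 CPM for the *M. mulatta* label and 1009 to 1206 CPM for the *P. anubis* label. With Moran's I of at least 0.1, 0 genes passed in 8 sections. Depth limits the CACNA1, CACNG and HCN genes, many of which had too few UMIs to be tested.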
